A study of Bos taurus with 4 samples.

Results

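The cell junction and cadherin genes were taken as every gene on the array whose annotated symbol marked it as a claudin, a numbered cadherin, a protocadherin, a connexin of the GJA, GJB or GJC families, a desmoglein, a desmocollin or a catenin, together with *JAM2*, *JAM3*, *F11R*, *OCLN*, *DSP*, *JUP*, *PKP3* and *EPCAM*. The rule found 74 genes with 177 probes among 12552 named genes. They comprised 19 claudins, 4 other tight junction proteins, 14 CDH cadherins, 13 protocadherins, 6 catenins, 8 desmosomal proteins, 9 connexins and *EPCAM*. The CDH cadherins were grouped by symbol and hold *CDH13*, *CDH16*, *CDH17* and *CDH23*, which are not classical cadherins. The symbols *TJP1*, *CDH1*, *CDH2* and *PKP2* had no annotated probe and were not analysed here. Each gene was read from its brightest probe.

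Bovine embryos were produced in vitro, and from day 5 the culture medium held either PD0325901, which blocks MEK, the kinase upstream of ERK in the MAPK cascade, or its solvent DMSO. Blastocysts of both groups were collected on day 9, and the inner cell mass (ICM), from which the embryo proper forms, was cut away from the trophectoderm by hand, a separation that can leave some trophectoderm cells attached. The samples were 2 MAPK-inhibited ICMs and 2 control ICMs, each made from pooled embryos and hybridised on a 2-colour array against 1 common pool of blastocyst RNA. Within each group, replicate a carried the ICM RNA in Cy3 and replicate b carried it in Cy5, so the letter and the dye orientation cannot be told apart. The study speaks of 2 biological replicates per sample for its stage and cell type arrays, but its methods do not say so for the arrays used here. No label ties replicates a and b to different cultures or embryo batches, and the p-values may therefore measure technical spread only.

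Epithelial cells hold together through several kinds of junction. Tight junctions, built from claudins, occludin and junctional adhesion molecules, seal the gap between neighbouring cells. Cadherins bind each other across that gap and are tied to the actin cytoskeleton by catenins, whereas desmosomes use desmogleins, desmocollins, plakoglobin and desmoplakin to anchor keratin filaments. Connexins form gap junctions, channels through which small molecules pass from cell to cell. In the mammalian blastocyst the trophectoderm is a sealed epithelium that pumps fluid into the cavity, while the ICM holds the epiblast and the hypoblast, and the hypoblast is the first epithelium to form from the ICM.

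The arrays differed in quality. The median ICM signal over all probes was 110 and 133 on MAPK-inhibited a and b, against 167 and 175 on control a and b. Raw signals are therefore given only as scanned, and the comparisons of genes rest on ratios to the pool. The sums over marker lists are an exception, being ICM signals relative to each array's median. In the ICM channel 83.7% and 97.5% of probes lay above background on MAPK-inhibited a and b, against 99.5% and 99.8% on control a and b. On MAPK-inhibited a, 1041 spots had a pool signal under 0.333 of the value on the other arrays, although the pool RNA was the same, compared with 3 to 46 spots on each of the other arrays. Of the junction genes, *JAM2*, *OCLN*, *GJC1* and *CTNND1* were read from such a spot, and each is given below with and without it. Of the 74 genes, 68 were above background on both MAPK-inhibited arrays and 73 on both control arrays. As a check of the labelled tissue, the epiblast gene *NANOG* had log2 ratios to the pool of 2.72 and 2.66 in MAPK-inhibited ICM and of 1.39 and 1.32 in control ICM (adjusted p of the difference 0.266). Of the measured markers, 6 of 7 for epiblast and 3 of 9 for trophectoderm had a mean ratio above the pool in each of the groups. The epiblast gene below it was *KLF4* at -0.31 in MAPK-inhibited ICM and *DPPA4* at -0.01 in control ICM. Some of the other epiblast means were small, such as *LIN28B* at 0.04 and 0.02. Of 9 hypoblast markers, 1 lay above the pool in MAPK-inhibited ICM and 6 in control ICM. Over all genes the shares above the pool were 52.5% and 53.2%.

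MAPK-inhibited and control ICMs were compared to find genes whose expression moved with MAPK inhibition. No junction gene passed an adjusted p of 0.05 in limma, where 0% of all genes were called, and the smallest adjusted p of a junction gene was 0.274. At an unadjusted p under 0.05, 12 junction genes were lower in MAPK-inhibited than in control ICM, 16.2% of them, beside 5.43% of all genes. Only 3 were higher, 4.05% of them, beside 8.76% of all genes. The 12 lower genes were *JAM2*, *OCLN*, *CLDN1*, *CLDN4*, *CLDN10*, *CLDN19*, *DSC2*, *DSG1*, *CTNNAL1*, *GJA1*, *GJB1* and *GJC1*, and the 3 higher genes were *PCDH8*, *CLDN8* and *CLDN2*. Adjusted p-values of these 15 genes ran between 0.274 and 0.476. Fewer junction genes, and fewer of all genes, were lower when control a or control b was left out. Without the 4 spots of low pool signal 70 junction genes were tested, and *JAM2*, *OCLN* and *GJC1* had no test. The other 9 of the 12 lower genes stayed lower at that threshold. No share over all genes is given for that setting. Fewer cells of one type and less RNA per cell cannot be told apart in such samples.

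The median log2 difference over the 74 genes was -0.03, beside 0.01 over all genes, and 43 of them (58.1%) had a negative difference, beside 48.0% of all genes. Both MAPK-inhibited arrays lay below both control arrays for 20 junction genes (27.0%, beside 17.5% of all genes) and above both for 4 (5.41%, beside 20.0%). The lower calls were more frequent among bright probes. Among the brightest 4184 of all genes 8.91% were lower, beside 7 of 24 junction genes there, and among the dimmest 4184 genes 1.63% were lower, beside 1 of 28 junction genes.

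**Figure D1:**
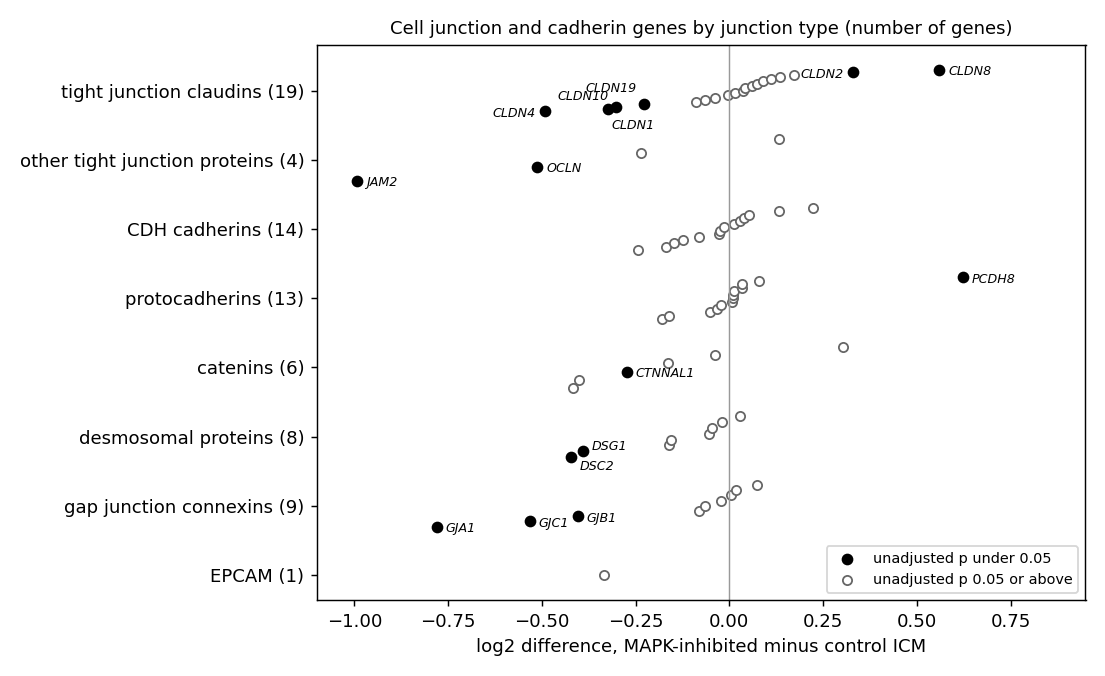
Log2 difference between MAPK-inhibited and control ICM (horizontal axis) for each of the 74 genes, in rows by junction type with the number of genes, filled where the unadjusted limma p was under 0.05. The filled points at the left belong to tight junction, desmosomal and connexin genes and 1 catenin. The 27 CDH cadherins and protocadherins hold 1 filled point, at the right. Over all genes, 5.43% were lower and 8.76% higher at that threshold.

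Markers of other cell types were read in the same samples, and none passed an adjusted p of 0.05 in limma. Over all genes, 5.43% were lower and 8.76% were higher at an unadjusted p under 0.05. Of 9 hypoblast markers measured, 4 were lower at that threshold and none was higher. The summed signal of the 9, relative to each array's median, was 53.5 and 58.1 in MAPK-inhibited ICM, against 109 and 92.6 in control ICM. *LAMB1* and *NID1* were the brightest of them. *NID1*, 1 of the 4 lower markers, gave scanned signals of 666 and 2113 in MAPK-inhibited ICM and of 7071 and 6159 in control ICM. Its spot on MAPK-inhibited a had a pool signal 0.301 of that on the other arrays. Of 9 trophectoderm markers 2 were higher and 2 were lower, with summed signals of 279 and 655 in MAPK-inhibited ICM and of 302 and 530 in control ICM. The groups overlapped, and replicate b had the larger sum in both. *TFAP2C* made up 42.2% to 72.7% of these sums. Without it they were 103 and 179 in MAPK-inhibited ICM and 175 and 175 in control ICM. The 103 of MAPK-inhibited a includes a spot of low pool signal for *GATA2*, 1 of the 2 lower markers. The pool signal of that spot was 0.199 of that on the other arrays. *GATA2* gave scanned signals of 706 and 12507 in MAPK-inhibited ICM and of 13668 and 16017 in control ICM. The sum of 103 therefore cannot be read as less trophectoderm in that sample. Of 7 epiblast markers 2 were higher and 1 was lower, with summed signals of 260 and 173 in MAPK-inhibited ICM and of 174 and 158 in control ICM, which overlapped. *NANOG* made up 46.6% to 77.6% of these, and the remaining 6 genes summed to 58 and 79.4 in MAPK-inhibited ICM and to 93 and 80.7 in control ICM. Of 5 cumulus and granulosa markers 3 were higher, with summed signals of 23.1 and 58.6 against 23.2 and 42.5. Replicate b again had the larger sum in both groups. *STAR*, 1 of the 3, had ratios of -0.45 and 0.93 in MAPK-inhibited ICM and of -0.67 and 0.75 in control ICM, which overlapped. No measured marker of these lists was at 0, *CDX2*, *KRT8* and *KRT18* were not analysed here, and the part of cell composition in the junction gene values was not tested.

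*JAM2* encodes a junctional adhesion molecule, an immunoglobulin-type protein of tight junctions. Its single probe gave ICM signals of 25.3 and 131 in MAPK-inhibited a and b, against 518 and 443 in control a and b. The pool gave 27.9 and 219 on the MAPK-inhibited arrays and 255 and 301 on the control arrays. The spot on MAPK-inhibited a was therefore below background in both channels, with a pool signal 0.115 of that on the other arrays, and only MAPK-inhibited b measured the gene in that group.

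As log2 ratios to the pool, *JAM2* stood at -0.01 and -0.64 in MAPK-inhibited ICM and at 0.75 and 0.59 in control ICM. Both control samples lay above the pool. Within letter b, where both spots were measured, the difference was -1.23. The fitted difference of -0.99 ± 0.14 (SE, adjusted p = 0.293) includes the ratio of 2 signals below background on MAPK-inhibited a, and with local background means in place of medians it was -0.55.

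The related *JAM3* and *F11R*, which encodes JAM-A, did not pass an unadjusted p of 0.05. *JAM3* had log2 ratios of 0.23 and -0.05 in MAPK-inhibited ICM and of 0.30 and 0.35 in control ICM, a difference of -0.24 ± 0.11 (SE, adjusted p = 0.590). The groups did not overlap, yet the difference was -0.07 within letter a and -0.40 within letter b. *F11R* had ratios of 0.52 and 0.26 against 0.31 and 0.20, so that the groups overlapped and the difference was 0.13 ± 0.08. Its 2 other probes stood at -0.27 (adjusted p = 0.399), past an unadjusted p of 0.05, and at -0.08. The 3 junctional adhesion molecules thus gave differences of -0.99, -0.24 and 0.13, which were not tested against each other.

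*OCLN* encodes occludin, a protein that spans the membrane at tight junctions. Its brightest probe gave 415 and 1712 in MAPK-inhibited ICM and 4216 and 3059 in control ICM, with pool signals of 666 and 1993 on the MAPK-inhibited arrays and of 2753 and 2766 on the control arrays. The log2 ratios were -0.08 and -0.28 in MAPK-inhibited ICM and 0.47 and 0.20 in control ICM. The groups did not overlap, and the difference was -0.51 ± 0.07 (SE, adjusted p = 0.293), with -0.55 within letter a, where the MAPK-inhibited spot had a pool signal 0.298 of that elsewhere, and -0.47 within letter b. Of its 3 other probes 1 had a negative difference (-0.42), and another, at 1.22, rested on MAPK-inhibited b alone.

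**Figure D2:**
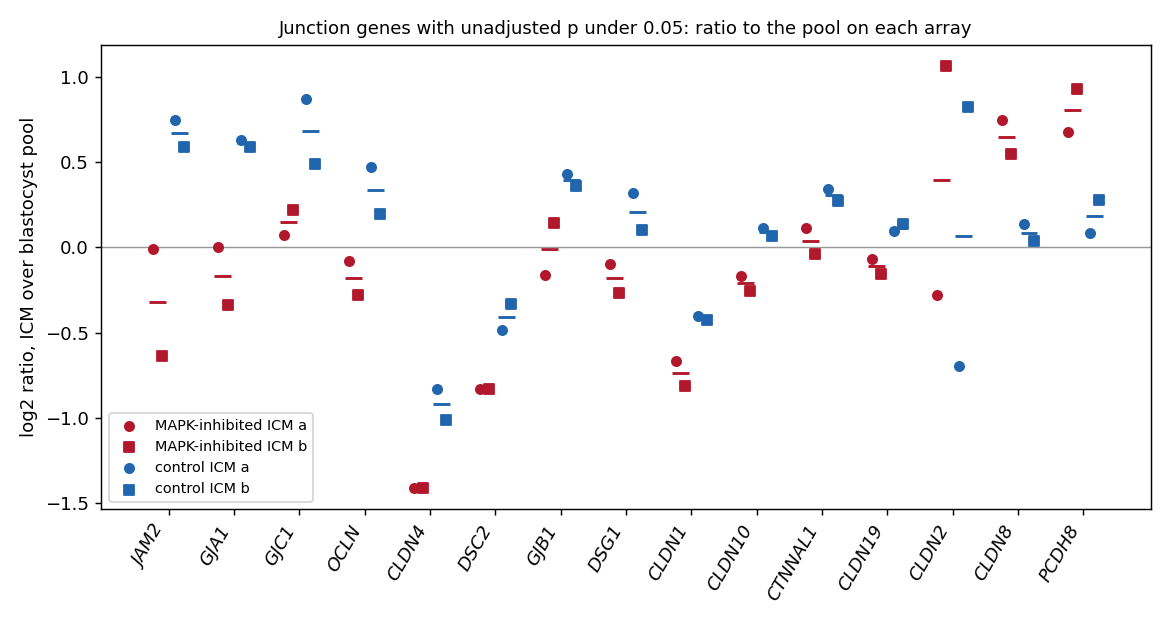
Log2 ratio of ICM over the blastocyst pool (vertical axis) on each array for the 15 genes with an unadjusted p under 0.05, with the mean of each group of 2 as a bar. The groups are separate for every gene but *CLDN2*, whose 2 replicate b arrays lie above its 2 replicate a arrays in both groups.

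Claudins form the strands that decide how tight a junction is and which ions pass it. Of 19 measured claudins, 4 were lower (21.1%, beside 5.43% of all genes) in MAPK-inhibited ICM at an unadjusted p under 0.05. At the same threshold 2 were higher (10.5%, beside 8.76%), and the other 13 had differences between -0.09 and 0.17. The median over the claudins was 0.04.

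*CLDN4*, a claudin of tight epithelia, had the largest negative difference of the claudins. Its signals were 307 and 356 in MAPK-inhibited ICM and 755 and 642 in control ICM, while the pool gave between 1007 and 1435 on all 4 arrays. The ratios were -1.41 and -1.41 in MAPK-inhibited ICM and -0.83 and -1.01 in control ICM, all below the pool, and the groups did not overlap. The difference was -0.49 ± 0.08 (SE, adjusted p = 0.324), with a 95% interval between -0.73 and -0.26, and its other probe stood at -0.15. With local background means in place of medians the difference was -0.30 and *CLDN4* was not called.

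*CLDN1*, a claudin needed for the skin barrier in mice, had ratios of -0.67 and -0.81 in MAPK-inhibited ICM and of -0.40 and -0.43 in control ICM (difference -0.32 ± 0.08, adjusted p = 0.372). *CLDN10*, known for selective ion passage in the kidney, had ratios of -0.17 and -0.26 against 0.12 and 0.07 (difference -0.30 ± 0.07, adjusted p = 0.372). *CLDN19* had ratios of -0.07 and -0.16 against 0.10 and 0.14 (difference -0.23 ± 0.08, adjusted p = 0.476). In each of these 3 genes both MAPK-inhibited samples lay below both controls and the other probes had the same sign, though none of those other probes passed at 0.05.

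In the other direction, *CLDN8* gave signals of 628 and 636 in MAPK-inhibited ICM and of 587 and 540 in control ICM. With the pool at 497 and 427 on the MAPK-inhibited arrays and at 469 and 561 on the control arrays, the ratios were 0.75 and 0.55 against 0.14 and 0.04. The groups did not overlap, and the difference was 0.56 ± 0.07 (SE, adjusted p = 0.283), with a 95% interval between 0.35 and 0.77. With local background means in place of medians the difference was 0.29 and *CLDN8* was not called. Set against the lower array medians of the MAPK-inhibited arrays, its ICM signals were the higher ones.

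*CLDN2* encodes a claudin that lets cations and water through. Its ratios were -0.28 and 1.07 in MAPK-inhibited ICM and -0.70 and 0.83 in control ICM. The letters differed far more than the groups, which overlapped, and the call (difference 0.33 ± 0.08, adjusted p = 0.390) rested on the dye term. Without the dye term the gene was not called, and leaving out 1 array gave values between -0.43 and 1.09. Of the other claudins named by their bright probes, *CLDN7* stood at -0.07 ± 0.07 and *CLDN9* at 0.11 ± 0.08.

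**Figure D3:**
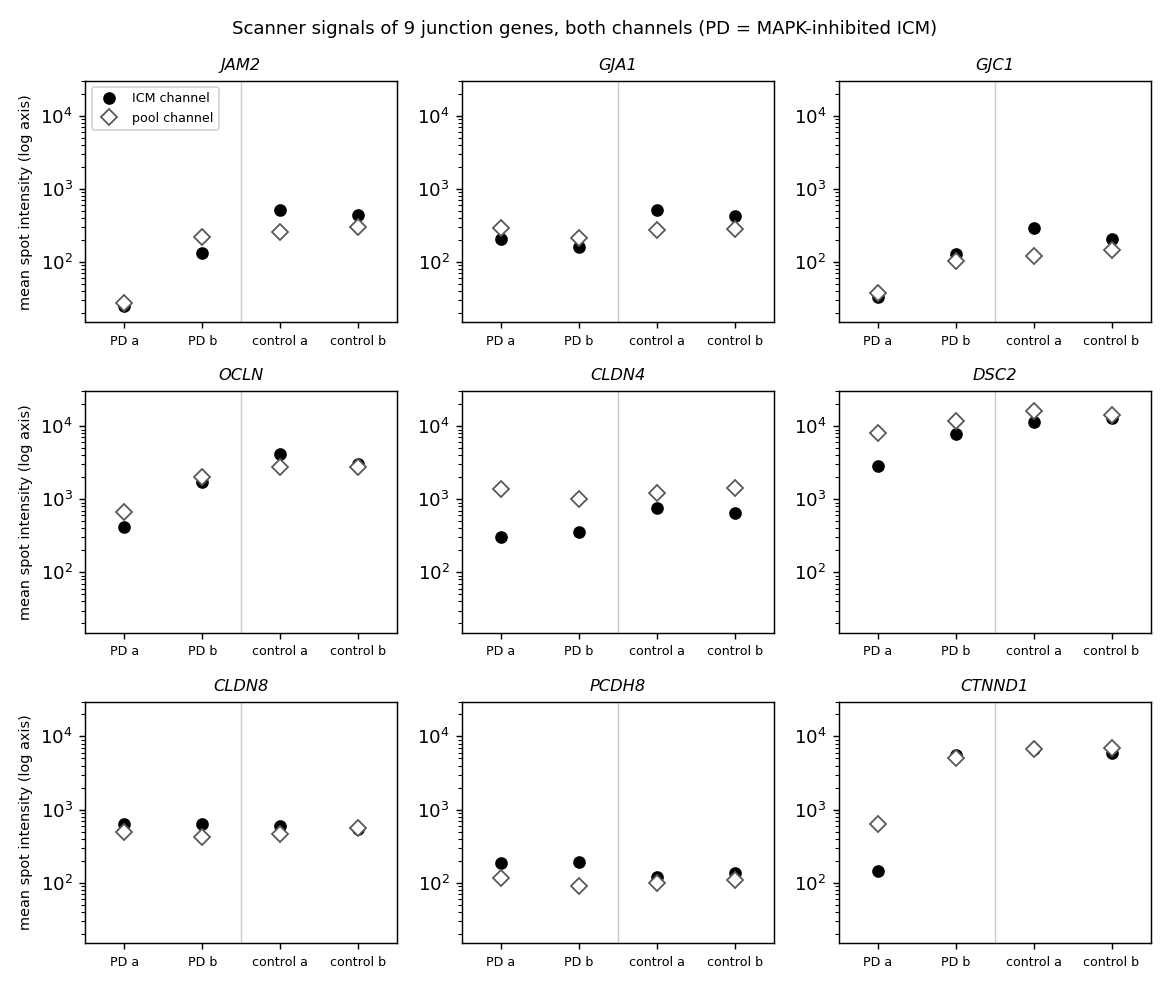
Mean spot intensity (vertical log axis) of the ICM channel (filled circles) and the pool channel (open diamonds) on each array for 9 genes, with the MAPK-inhibited arrays left of the line and the control arrays right of it. Both channels of *JAM2*, *GJC1*, *OCLN* and *CTNND1* drop on MAPK-inhibited a, whereas the pool signals of *GJA1*, *CLDN4* and *PCDH8* stay close across arrays.

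The 14 CDH cadherins held no call in either direction, beside 5.43% of all genes lower and 8.76% higher. Several of them, such as *CDH13*, *CDH17* and *CDH18*, had dim probes. Among the dimmest 4184 of all genes only 1.63% were lower and 1.6% higher. The differences of the CDH cadherins lay between -0.24 and 0.22, with a median of -0.02. *CDH19* had ratios of -0.09 and -0.17 in MAPK-inhibited ICM and of 0.02 and 0.21 in control ICM, and its difference of -0.24 ± 0.10 did not pass (adjusted p = 0.533). *CDH26* stood at -0.17 ± 0.14, *CDH15*, the M-cadherin of muscle, at 0.13 ± 0.09 and *CDH4*, the R-cadherin of the retina, at 0.03 ± 0.09. *CDH22* stood at 0.22 ± 0.09 (adjusted p = 0.544), with ratios of -0.24 and 0.63 against -0.35 and 0.29, where the letters again differed more than the groups. *CDH3*, the P-cadherin of placenta and skin, had ratios of 0.03 and -0.15 in MAPK-inhibited ICM and of 0.05 and -0.01 in control ICM, which overlapped. Its difference was -0.08 (adjusted p = 0.809).

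Of 13 protocadherins, a branch of the cadherin family best known from the nervous system, *PCDH8* alone was called. Thus 7.69% of them were higher, near the 8.76% of all genes, and none was lower, beside 5.43% of all genes. In mouse embryos *PCDH8* is expressed in the paraxial mesoderm. It gave signals of 185 and 194 in MAPK-inhibited ICM and of 119 and 137 in control ICM, with the pool between 89.0 and 114 on the 4 arrays. The ratios were 0.68 and 0.93 in MAPK-inhibited ICM and 0.09 and 0.28 in control ICM, and the groups did not overlap.

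The difference of *PCDH8* was 0.62 ± 0.07 (SE), 1.54-fold, with an adjusted p of 0.274, the smallest of the 74 genes. Its 2 dimmer probes stood at -0.07 and -0.03, the mean of its probes gave 0.18, and local background means in place of medians gave 0.16 for the brightest. The other 12 protocadherins lay between -0.18 and 0.08. Among them *PCDH19* stood at -0.18 ± 0.15, with 0.09 within letter a and -0.44 within letter b, *PCDH1* at -0.16 ± 0.07 (adjusted p = 0.566), *PCDH7* at 0.03 ± 0.10 and *PCDHGB4* at 0.08 ± 0.07. *PCDHGB4* belongs to a cluster of near-identical genes, and its 9 probes may share signal with its neighbours.

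Catenins link cadherins to the cytoskeleton, and β-catenin, encoded by *CTNNB1*, also carries the WNT signal into the nucleus. *CTNNB1* had ratios of -0.32 and -0.80 in MAPK-inhibited ICM and of -0.20 and -0.11 in control ICM. Both MAPK-inhibited samples lay below both controls, but the difference of -0.40 ± 0.16 did not pass (adjusted p = 0.536), being -0.12 within letter a and -0.69 within letter b. Its next 2 probes by signal stood at -0.46 and -0.48, both past an unadjusted p of 0.05, and the fourth, near background, at 0.06.

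*CTNNAL1*, an α-catenin-like protein, was the catenin called, with ratios of 0.12 and -0.04 in MAPK-inhibited ICM and of 0.35 and 0.28 in control ICM (difference -0.27 ± 0.07, adjusted p = 0.403). *CTNNBIP1*, which encodes an inhibitor of the binding of β-catenin to TCF factors, had the opposite sign, with ratios of 0.22 and 0.39 in MAPK-inhibited ICM and of 0.09 and -0.09 in control ICM. The groups did not overlap, and the difference of 0.30 ± 0.11 did not pass (adjusted p = 0.508).

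*CTNND1*, encoding p120-catenin, which keeps cadherins at the membrane, rested on 1 spot. On MAPK-inhibited a the ICM signal was 144 and the pool signal 642, against 5653 and 5043 on MAPK-inhibited b, 6792 and 6825 on control a and 6024 and 6942 on control b. The ratio of that spot was -1.14, while the other MAPK-inhibited array stood at -0.02 and the controls at -0.07 and -0.26. The difference was -0.42 ± 0.34 (adjusted p = 0.771) with the spot and 0.24 without it.

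**Figure D4:**
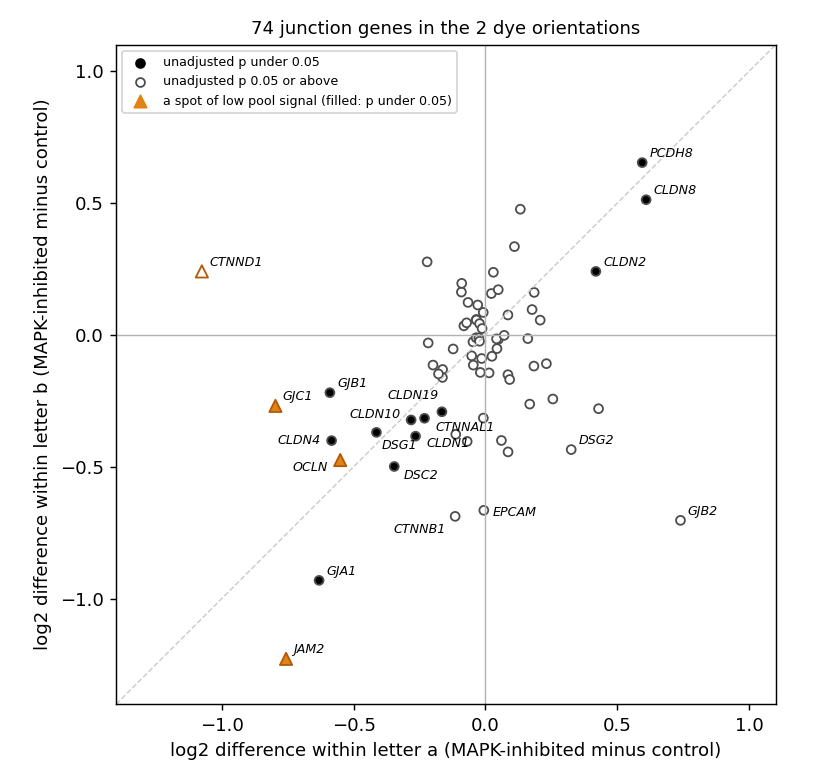
Log2 difference between MAPK-inhibited and control ICM within letter a (horizontal axis, ICM in Cy3) against that within letter b (vertical axis, ICM in Cy5) for the 74 genes, with the dashed line marking equal values and triangles marking genes read from a spot of low pool signal. The sign was the same in both letters for 43 of the 74 genes (58.1%, beside 59.8% of all genes), while *CTNND1*, *GJB2* and *DSG2* lay on opposite sides of 0.

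Of the 8 desmosomal proteins, 2 were lower (25%, beside 5.43% of all genes) and none was higher (beside 8.76%) at an unadjusted p under 0.05. *DSC2* encodes the desmocollin that is widespread in simple epithelia. Its signals were 2886 and 7904 in MAPK-inhibited ICM and 11404 and 12907 in control ICM, with pool signals of 8116 and 11745 against 16319 and 14436. The ratios were -0.83 and -0.83 in MAPK-inhibited ICM and -0.49 and -0.33 in control ICM, all below the pool. The difference was -0.42 ± 0.08 (SE, adjusted p = 0.336), and its second probe also stood lower, at -0.25 (adjusted p = 0.427).

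*DSG1* encodes a desmoglein best known from the upper layers of the skin. It had ratios of -0.09 and -0.27 in MAPK-inhibited ICM and of 0.32 and 0.10 in control ICM, which did not overlap, and a difference of -0.39 ± 0.07 (SE, adjusted p = 0.329). Its 3 other probes, with mean signals between 37.2 and 70.1, stood between -0.04 and -0.02.

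The other 6 desmosomal proteins did not pass an unadjusted p of 0.05. *DSP*, encoding desmoplakin, which ties keratin to the plaque, had ratios of -0.61 and -1.02 in MAPK-inhibited ICM and of -0.77 and -0.75 in control ICM, with a difference of -0.05 ± 0.13. *JUP*, encoding plakoglobin, had ratios of -0.78 and -0.36 against -0.56 and -0.64, with a difference of 0.03 ± 0.14. *DSG2* had ratios of -0.26 and -0.73 against -0.58 and -0.30, with a difference of -0.05 ± 0.20. In all 3 the groups overlapped and the sign turned between the letters, and the 95% interval of the *DSG2* difference, between -0.63 and 0.52, would hold the value of *DSC2*. *DSC1* stood at -0.16 ± 0.11, *PKP3* at -0.16 and *DSC3* at -0.02.

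Of 9 connexin genes, 3 were lower (33.3%, beside 5.43% of all genes) and none was higher (beside 8.76%) at an unadjusted p under 0.05. *GJA1* encodes connexin 43, the connexin most widely found in early embryos and many other tissues. It gave signals of 207 and 160 in MAPK-inhibited ICM and of 520 and 427 in control ICM, with pool signals of 295 and 214 against 279 and 285. Both MAPK-inhibited signals lay below both control signals while the pool signals overlapped. The median ICM signals over all probes were also lower on the MAPK-inhibited arrays, 110 and 133 against 167 and 175.

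The log2 ratios of *GJA1* were 0.00 and -0.34 in MAPK-inhibited ICM and 0.63 and 0.59 in control ICM. The difference was -0.78 ± 0.10 (SE), 1.72-fold lower, with a 95% interval between -1.07 and -0.49, an unadjusted p of 0.0018 and an adjusted p of 0.283. It was -0.63 within letter a and -0.93 within letter b, and the second probe stood at -0.31 (adjusted p = 0.450). With local background means in place of medians the brightest probe gave -0.49. Neither letter rested on a spot of low pool signal.

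*GJC1*, encoding connexin 45, gave 33.6 and 130 in MAPK-inhibited ICM and 297 and 210 in control ICM, with pool signals of 37.8 and 103 against 120 and 144. The spot on MAPK-inhibited a was below background in both channels. The ratios were 0.08 and 0.22 against 0.87 and 0.49. Within letter b, where both spots were measured, the difference was -0.27, and the fitted -0.53 ± 0.15 (SE, adjusted p = 0.417) includes the spot below background. *GJB1*, encoding connexin 32, a connexin of liver and Schwann cells, had ratios of -0.16 and 0.14 in MAPK-inhibited ICM and of 0.43 and 0.36 in control ICM. The groups did not overlap, and the difference was -0.40 ± 0.12 (adjusted p = 0.423), with -0.59 within letter a and -0.22 within letter b.

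The brightest probes of the remaining connexins lay between -0.08 and 0.07. *GJB5* had ratios of -0.25 and 0.47 in MAPK-inhibited ICM and of -0.24 and 0.45 in control ICM, a difference of 0.01 ± 0.07, so that it varied with the letter and not with the group. *GJB2*, encoding connexin 26, had ICM signals of 169 and 138 in MAPK-inhibited ICM and of 119 and 5100 in control ICM, and the pool signal on control b was 4295 beside 191 to 252 on the other arrays. That 1 spot made its probe the brightest of 3, and the difference of 0.02 ± 0.37 carries its spread. The next probe of *GJB2* stood at 0.40 (adjusted p = 0.385), past an unadjusted p of 0.05, with 0.26 within letter a and 0.54 within letter b.

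*EPCAM* encodes an adhesion molecule found on nearly all simple epithelia and on pluripotent cells. Its ratios were -0.42 and 0.07 in MAPK-inhibited ICM and -0.41 and 0.74 in control ICM. The groups overlapped, and the difference of -0.34 ± 0.18 did not pass (adjusted p = 0.638), with -0.01 within letter a and -0.67 within letter b.

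Relative to the blastocyst pool, which contains trophectoderm as well as ICM, 35 junction genes lay above 0 in MAPK-inhibited ICM (47.3%, beside 52.5% of all genes) and 49 in control ICM (66.2%, beside 53.2%). These ratios describe ICM against a common pool and carry no test. In control ICM the 4 highest mean ratios were those of *GJC1* at 0.68 ± 0.27, *JAM2* at 0.67 ± 0.11, *GJA1* at 0.61 ± 0.03 and *GJB1* at 0.40 ± 0.05 (SD, n = 2 each). The same genes stood at 0.15 ± 0.10, -0.32 ± 0.45, -0.17 ± 0.24 and -0.01 ± 0.21 in MAPK-inhibited ICM, where *GJC1* and *JAM2* include a spot below background. The first 3 of these control means lay closer to each other than the spread of *GJC1*.

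The 4 lowest in control ICM were *CLDN4* at -0.92 ± 0.13, *DSP* at -0.76 ± 0.01, *JUP* at -0.60 ± 0.06 and *DSG2* at -0.44 ± 0.20 (SD, n = 2 each). In MAPK-inhibited ICM they stood at -1.41 ± 0.00, -0.81 ± 0.29, -0.57 ± 0.30 and -0.50 ± 0.34. All 8 desmosomal proteins had a mean ratio below 0 in MAPK-inhibited ICM, as had 5 of the 8 in control ICM. For the connexins, 3 of 9 lay above the pool in MAPK-inhibited ICM and 8 of 9 in control ICM. Over all genes 52.5% and 53.2% lay above it. *GJA3*, *GJA9* and *GJB6* changed side with means near 0. They stood at -0.01, -0.01 and -0.02 in MAPK-inhibited ICM and at 0.06, 0.02 and 0.06 in control ICM. *GJA1* and *GJB1* changed side by more, with the means given above.

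**Figure D5:**
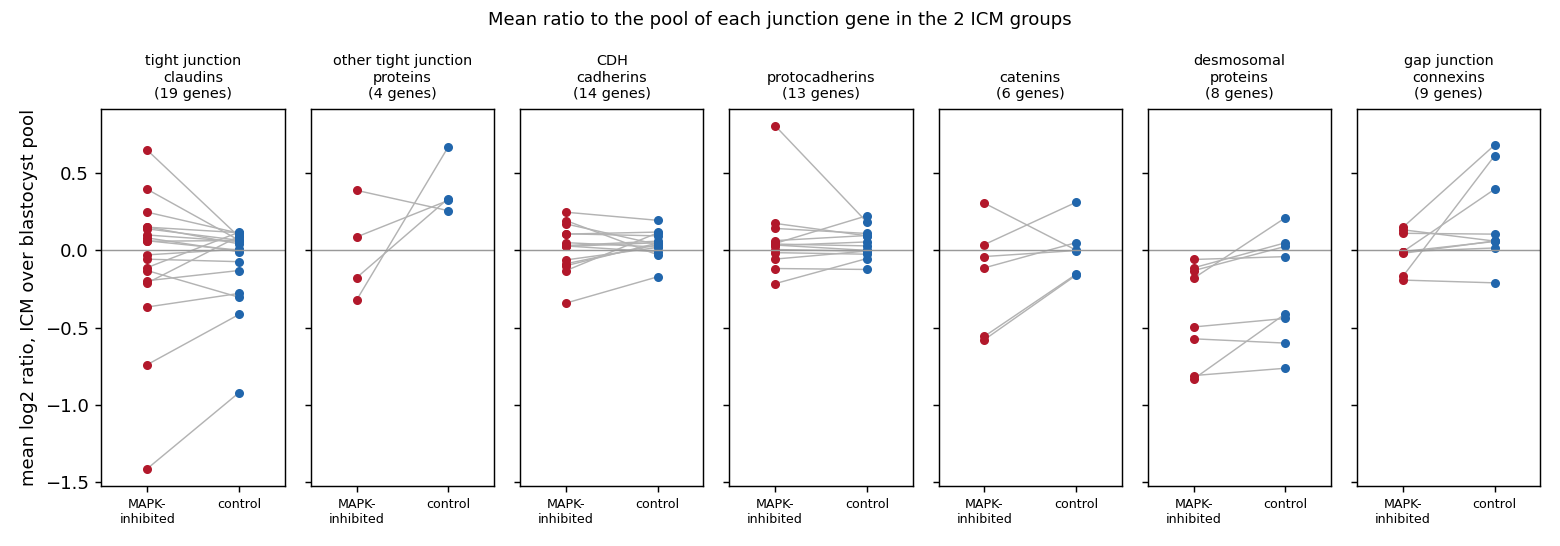
Mean log2 ratio of ICM over the blastocyst pool (vertical axis, mean of 2 arrays) for each gene of 7 junction types, with MAPK-inhibited ICM left, control ICM right and a line joining the values of a gene. The desmosomal proteins lie below 0 in MAPK-inhibited ICM, and the 3 connexins highest in control ICM lie closer to 0 in MAPK-inhibited ICM.

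Genes whose products work with these junctions were described from lists of partners. Of 19 measured junction adaptor and plaque proteins, 2 were higher and 1 was lower at an unadjusted p under 0.05, with a median of 0.00. *AMOTL1*, an angiomotin that links junctions to the Hippo pathway, stood at 0.34 (adjusted p = 0.445), *MARVELD3*, a relative of occludin, at 0.23 (adjusted p = 0.458) and *VEZT*, encoding vezatin of adherens junctions, at -0.34 (adjusted p = 0.405). Of 9 polarity genes, 2 were higher and 1 was lower. Beside the counts of these lists, 8.76% of all genes were higher and 5.43% were lower. *SCRIB*, a basolateral polarity protein, had ratios of 0.14 and 0.03 in MAPK-inhibited ICM and of -0.26 and -0.40 in control ICM, a difference of 0.41 (adjusted p = 0.324), and *DLG1*, its partner, stood at -0.23 (adjusted p = 0.455). The value of *LLGL1*, 0.84 (adjusted p = 0.405), came with a spot on MAPK-inhibited a whose pool signal was 53.5 times that on the other arrays.

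None of 12 nectins and other adhesion receptors, 3 keratins, 1 pannexin or 14 transcription factors of epithelial junctions was called in either direction. Their medians were -0.05, -0.14, -0.06 and 0.02. The transcription factors included *GRHL2*, *OVOL1*, *ZEB1* and *SNAI2*, and *SNAI2* had the largest difference of them, 0.49 (adjusted p = 0.622), where its pool signal on MAPK-inhibited a was 145 times that on the other arrays. Over the 58 measured partner genes, 4 were higher (6.90%, beside 8.76% of all genes) and 2 were lower (3.45%, beside 5.43%).

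Several junction genes lie side by side in the bovine genome. In the RefSeq gene order of assembly ARS-UCD2.0, 11 pairs of the 74 genes were next to each other, and 8 of these pairs had differences of the same sign. No pair had both genes called. *DSG1* and *DSC2* are separated by *DSC1*, which stood at -0.16, and *DSC3* on the far side stood at -0.02. *CLDN4* stood at -0.49 beside its neighbour *CLDN3* at 0.09, and *CLDN8* at 0.56 beside *CLDN17* at 0.06.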

How the data were processed

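The deposited scanner files gave mean spot intensity and local background for both channels. The authors labelled doubly amplified cRNA and also deposited log2 ratios, made by loess and a dye bias correction specific to each gene, whose direction (ICM over pool) was taken from scanner values and whose centring is unknown. Here, mean spot intensity was corrected by normexp (offset 50, local background median) and normalized by loess within arrays in R 4.3.3 with limma 3.58.1, leaving out 1567 control spots. Group and dye orientation were the terms of a model fitted by lmFit and eBayes (1 residual degree of freedom, prior 2.9), two-sided, with Benjamini-Hochberg adjustment over 43653 probes. Background was the 95th percentile of 757 control spots of 2 sequences near background. Array number, 2 per group, limits the precision. Annotation gave 1 symbol for 27952 probes and none for 15701. The brightest probe stood for a gene, and all 74 symbols were found in RefSeq names.

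The members, gene lists and named genes were chosen with earlier results of these data known. Named were *JAM2*, genes above background on both arrays of a group with an unadjusted p under 0.05, the 3 brightest and 3 largest differences of each type, and the 4 highest and 4 lowest ratios to the pool in control ICM. *CDH3*, *PKP3*, *DSC3*, *CLDN3*, *CLDN17* and the partner genes were added after their values were seen. The script was tested on simulated data. Replicate letters pair arrays by dye, which makes the dye term a replicate block too, and deviations of arrays of 1 letter correlated with r = 0.454 across probes. No sequence is shown, since no sequence table was used here.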

Additional observations from a re-analysis of the deposited data

How the results depend on the processing

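*GJA1*, *DSC2* and *PCDH8* kept an unadjusted p under 0.05 in all 12 tested alternatives, and the other 12 called genes each lost it in at least 1, for causes that were not tested. Local background means gave 0.16 for *PCDH8* and -0.49 for *GJA1*, and the mean of all probes gave 0.18 for *PCDH8*. With the authors' processed log2 ratios, 3 junction genes passed an adjusted p of 0.05, *JAM2* at -1.12 (adjusted p = 0.012), *GJA1* at -0.93 (0.0184) and *PCDH8* at 0.88 (0.0257), and 121 of all genes passed. The adjusted p of *JAM2* was otherwise between 0.081 and 1.00. Without the replicate block, which is the dye term, 12 junction genes were lower, 3 were higher, *CLDN2* was no longer called and the adjusted p of *JAM2* was 0.483. Median centring in place of loess gave 18 lower and 3 higher junction genes and a median of -0.088, but 1789 lower and 302 higher among all genes, whose median it moved to -0.05. Over letter b alone the median was -0.080.

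Leaving out 1 array, fitted without the dye term and with a lone sample assumed to vary like the others, gave 5 to 15 lower and 2 to 4 higher junction genes, the fewest lower without control a, beside 196 to 1108 lower and 286 to 1137 higher among all genes. *JAM2* ranged from -1.31 without MAPK-inhibited a to -0.68 without MAPK-inhibited b. The -0.68 rested on the MAPK-inhibited a spot that was below background in both channels. That spot was not left out of the fit to the authors' processed ratios either. Signs turned in the fits without 1 array for genes that did not pass and for *CLDN2*. The ranges were -0.43 to 1.09 for *CLDN2*, -0.19 to 0.056 for *CLDN7*, -0.0058 to 0.27 for *CDH15*, -0.21 to 0.66 for *CDH22*, -0.12 to 0.17 for *CDH4*, -0.36 to 0.039 for *PCDH1*, -0.45 to 0.092 for *PCDH19* and -0.069 to 0.13 for *PCDH7*. They were -0.98 to 0.15 for *CTNND1*, -0.29 to 0.18 for *DSG2*, -0.25 to 0.16 for *DSP*, -0.18 to 0.24 for *JUP*, -0.54 to 0.58 for *GJB2*, -0.35 to 0.36 for *GJB5* and -0.91 to 0.24 for *EPCAM*.

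Signs also turned, with no called gene but *OCLN* among them, as follows. The mean of all probes gave 0.088 for *OCLN*, -0.071 for *F11R*, -0.022 for *PCDH7*, -0.020 for *PCDHGB4*, 0.028 for *DSG2* and -0.031 for *JUP*. Median centring gave -0.081 for *CLDN9*, -0.046 for *CDH15*, -0.14 for *CDH4*, -0.093 for *PCDH7*, -0.070 for *PCDHGB4*, -0.12 for *JUP*, -0.16 for *GJB2* and -0.16 for *GJB5*. Local background means gave -0.0079 for *CDH4*, -0.026 for *PCDH7*, -0.0084 for *JUP*, -0.47 for *GJB2* and -0.046 for *GJB5*, and no background correction gave -0.0047 for *GJB5*. Letter a alone gave 0.060 for *CDH26*, -0.066 for *CDH4*, 0.085 for *PCDH19*, 0.32 for *DSG2*, 0.17 for *DSP*, -0.22 for *JUP* and -0.013 for *GJB5*. Letter b alone gave -0.12 for *PCDH7*, 0.24 for *CTNND1* and -0.70 for *GJB2*. Leaving out spots of low pool signal, an alternative chosen after seeing the data, gave 0.24 for *CTNND1* and left *JAM2*, *OCLN* and *GJC1* with no test. Over all genes, the count lower at an unadjusted p under 0.05 was 445 without the block and the count higher was 698 with the mean of all probes.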
